A study of Mus musculus with 60 samples.

Results

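Cytosolic ribosomal proteins are the protein building blocks of the ribosome that works in the cytoplasm, and their genes were followed here in the prefrontal cortex of young mice. The members were all genes whose mouse symbol has the form of a large subunit name (Rpl, with the acidic stalk genes Rplp0 to Rplp2) or a small subunit name (Rps, with Rpsa), pseudogenes left out. Of 18088 genes in the deposited table, 79 symbols matched, and Rps4l was dropped because it is annotated as a pseudogene, which left 78 members, 47 of the large and 31 of the small subunit. Rpl10l and Rpl39l fit the symbol form but were not analysed here. Genes entered the tests when 5 or more libraries reached a value of 10, and all 78 members did.

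The mice were C57BL/6J of both sexes, either wild type (WT) or heterozygous for the N2373K allele of Chd8 (Chd8+/N2373K, called Het below), a gene for a chromatin remodeller tied to autism spectrum disorder. Each genotype received vehicle, fluoxetine (a serotonin reuptake inhibitor) or lithium through the mother's milk from postnatal day 3 to 24, and cortex was taken on day 25. The resulting 12 groups held 5 libraries each, 60 in all, made with a stranded mRNA kit that selects polyadenylated RNA. The Het mice keep 1 wild-type copy of Chd8, and with delivery through milk the dose each pup received is not known. Litters are not given in the labels either, so the p-values below measure the spread between these samples, in which littermates may sit together. In bulk cortex, fewer cells of a type and less RNA per cell cannot be told apart.

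The cytosolic ribosome has a small subunit, which reads the mRNA, and a large subunit, which forms the peptide bond and feeds the new chain into an exit tunnel. Nearly every protein is present once per ribosome, while the acidic stalk proteins, which recruit translation factors, come in several copies. Most ribosomal protein mRNAs begin with a run of pyrimidines, the terminal oligopyrimidine motif, through which mTORC1 signalling sets how well they are translated, and neurons also carry these mRNAs into dendrites and axons.

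The starts of 8 members on which the results below turn are shown because the pyrimidine run is what this gene family is known to share. Each line holds 50 bases of the gene's own strand, 30 before and 20 after the RefSeq transcription start in GRCm38.p6, and capitals mark unbroken runs of at least 8 pyrimidines (C or T).
Rpl15 (chr14:18270967-18271016, minus strand): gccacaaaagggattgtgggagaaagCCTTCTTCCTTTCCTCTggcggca
Rpl4 (chr9:64173357-64173406, plus strand): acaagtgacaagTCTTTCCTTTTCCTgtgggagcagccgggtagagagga
Rps6 (chr4:86857348-86857397, minus strand): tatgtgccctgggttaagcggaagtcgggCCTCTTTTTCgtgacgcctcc
Rps15a (chr7:118116128-118116177, minus strand): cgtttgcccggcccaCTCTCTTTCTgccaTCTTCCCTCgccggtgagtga
Rps4x (chrX:102189372-102189421, minus strand): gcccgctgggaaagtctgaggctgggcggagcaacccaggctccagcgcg
Rpl10 (chrX:74270786-74270835, plus strand): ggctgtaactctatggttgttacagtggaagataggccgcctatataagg
Rpl12 (chr2:32961682-32961731, plus strand): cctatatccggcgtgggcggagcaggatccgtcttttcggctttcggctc
Rpl41 (chr10:128549149-128549198, minus strand): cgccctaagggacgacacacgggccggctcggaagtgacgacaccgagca
The longest run was 17 bases in Rpl15, 14 in Rpl4, and 10 in both Rps6 and Rps15a, and the other 4 windows held none. In Rpl15 and Rps6 the run spanned the start, as did the shorter run of Rps15a. The run in Rpl4 and the longer one in Rps15a ended before the start, outside the annotated transcript. RefSeq starts can belong to a longer or shorter alternative transcript, so no run says only that these letters are not in this window. Over 80 bases, 50 before to 30 after the start, 41 of the 70 listed ribosomal protein promoters (58.6%) held such a run on the gene's strand, with similar shares for the large subunit (59.5%) and the small subunit (57.1%). Among all 32851 listed promoters of the same length the share was 30.4%. On the opposite strand 14 of the 70 ribosomal promoters held one, and 32.4% of all promoters did. Runs were counted on either side of the start, so a counted run need not lie in the mRNA. The 70 promoters belong to 58 of the 78 members.

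Values are given as normalized reads, that is, reads per gene divided by one size factor per library, with 24.05 to 31.65 M reads per library. Chd8 itself averaged 2671 ± 134 normalized reads in 30 Het libraries and 3094 ± 91.7 (SD) in 30 WT libraries. Tests used limma on log2(value + 1) with 1 mean per group over all 60 libraries. A gene was called when its p-value, adjusted by Benjamini-Hochberg over all 17807 genes that passed the filter, was under 0.05. Markers of cortical excitatory neurons were present in every library (Slc17a7 34170 to 54210 normalized reads). Markers of neighbouring tissue varied between libraries: the choroid plexus marker Ttr ran from 0 to 14340 (median 20.8) and the olfactory bulb marker Eomes from 0 to 1471. The bulb marker score, the mean log2 value over 12 markers relative to all libraries, was at least 1 in 14 libraries. Those 14 included 3 of 5 Het vehicle males and 3 of 5 Het fluoxetine females but no WT fluoxetine library, so the counts of members called for a drug against vehicle are also given without them. No choroid plexus marker was called in the comparisons with vehicle or between genotypes on vehicle.

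**Figure D1:**
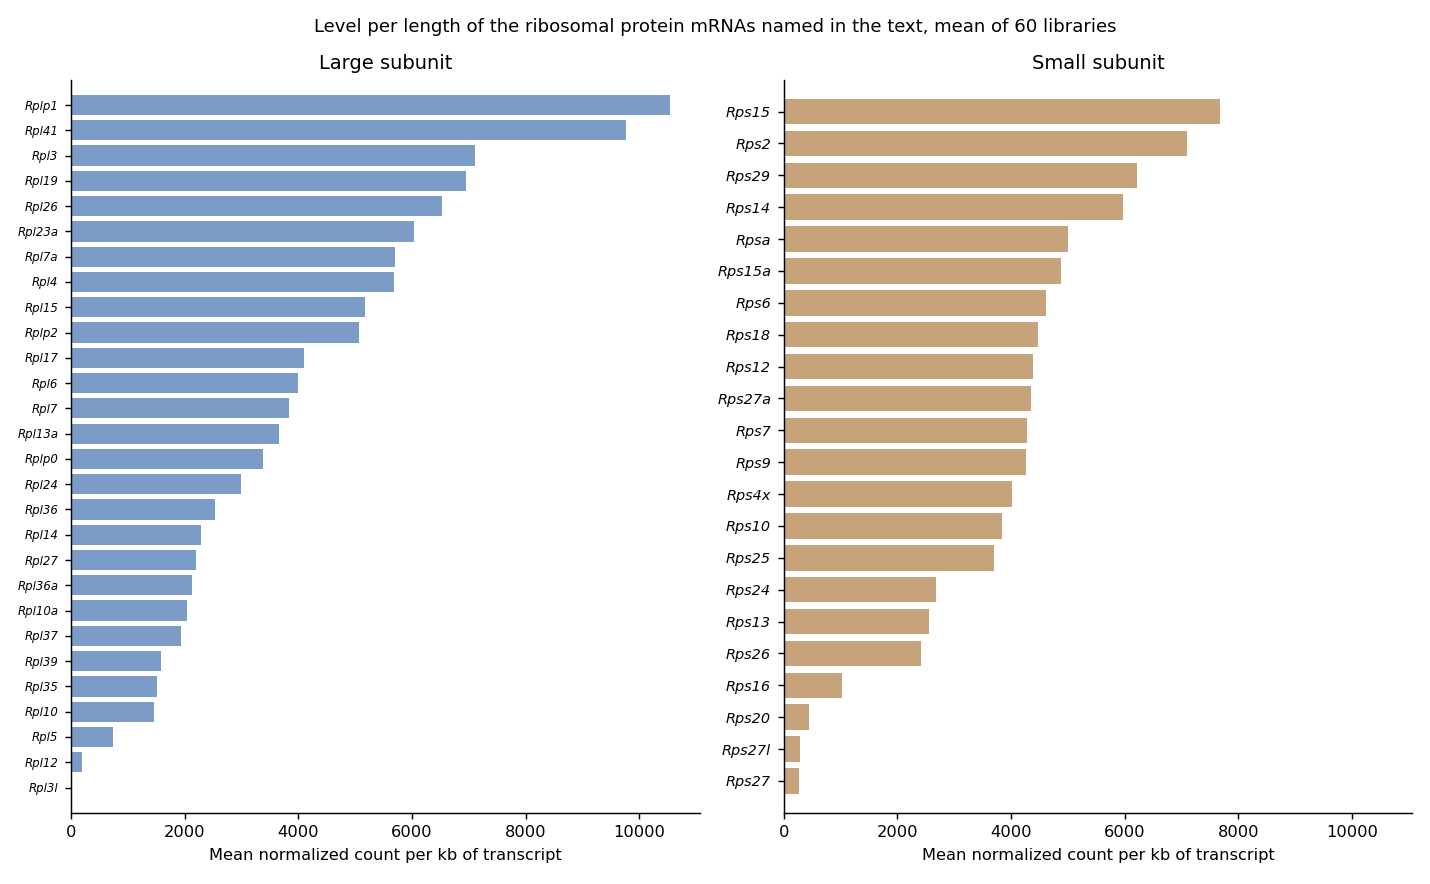
Bars give mean normalized reads per kilobase of transcript over 60 libraries (x axis, linear from 0), called normalized count there, for the 28 large and 22 small subunit members named in the text. Rplp1 (10540) and Rps15 (7678) are highest, and the bar of Rpl3l (5.64) is too short to see.

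Ribosomal protein mRNAs were abundant: together the 78 genes took 0.743% of reads in the median library (range 0.665% to 0.910%), of which the large subunit took 0.461% and the small subunit 0.283%. Per kilobase of transcript, the median level was 3462 normalized reads in the large and 3961 in the small subunit. The highest large subunit levels per kilobase were those of Rplp1 (10540), an acidic stalk protein, Rpl41 (9767), one of the smallest known proteins, and Rpl3 (7109), which sits next to the peptidyl transferase centre. The lowest were Rpl3l (5.64), the muscle paralog of Rpl3, Rpl12 (199.1), at the base of the stalk, and Rpl5 (744), which carries the 5S rRNA. In the small subunit Rps15 (7678), Rps2 (7104) and Rps29 (6213) were highest, and Rps27 (275), its paralog Rps27l (277) and Rps20 (447) were lowest per kilobase. The Rps20 transcript taken from the annotation is 3706 bases long, which lowers its level per kilobase.

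Near-identical copies limit how well single members are measured. A median of 63.1% of the 31-base words in the large subunit transcripts, and 58.4% in the small subunit transcripts, also occurred in transcripts of other genes. The share was 98.7% for Rps27, whose values ran from 30.9 to 413 normalized reads, 92.3% for Rpl10 and 87.6% for Rpl3, against 0% for Rpl3l. Values of single members with high shares are uncertain, because the sources used here do not say how such reads were divided in counting.

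Within groups the members of a subunit rose and fell together from library to library. After group means were removed, the correlation of a member with the mean of its subunit had a median of 0.74 in both subunits over 60 libraries. Rpl26 (0.91), Rplp0 (0.88) and Rpl13a (0.86) in the large and Rps27a (0.82), Rps12 (0.82) and Rps10 (0.81) in the small subunit followed it most closely. Rpl3l (0.14), Rpl5 (0.21) and Rpl10a (0.30), and Rps27 (0.18), Rps26 (0.44) and Rps14 (0.47), followed it least. The mean log2 level of a subunit relative to all libraries, its score, ran from -0.16 to 0.26 for the large and from -0.19 to 0.28 for the small subunit. The highest scores belonged to Het fluoxetine female replicate 2 (0.26 and 0.28) and Het vehicle male replicate 3 (0.21 and 0.25), and Het fluoxetine female replicate 3 was among the lowest (-0.16 in both). The scores also moved with 308 other genes with transcripts of at most 800 bases, for a reason that was not tested. Over 60 libraries r was 0.83 for the large and 0.77 for the small subunit. Medians with the short-transcript score as a covariate are therefore given for the drugs and for genotype. With the bulb marker score r was 0.01 and 0.06. Among the other cell type marker scores r ran from -0.22 (cortical excitatory neurons) to 0.31 (microglia) for the large subunit. For the small subunit it ran from -0.28 (cortical excitatory neurons) to 0.36 (interneurons).

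**Figure D2:**
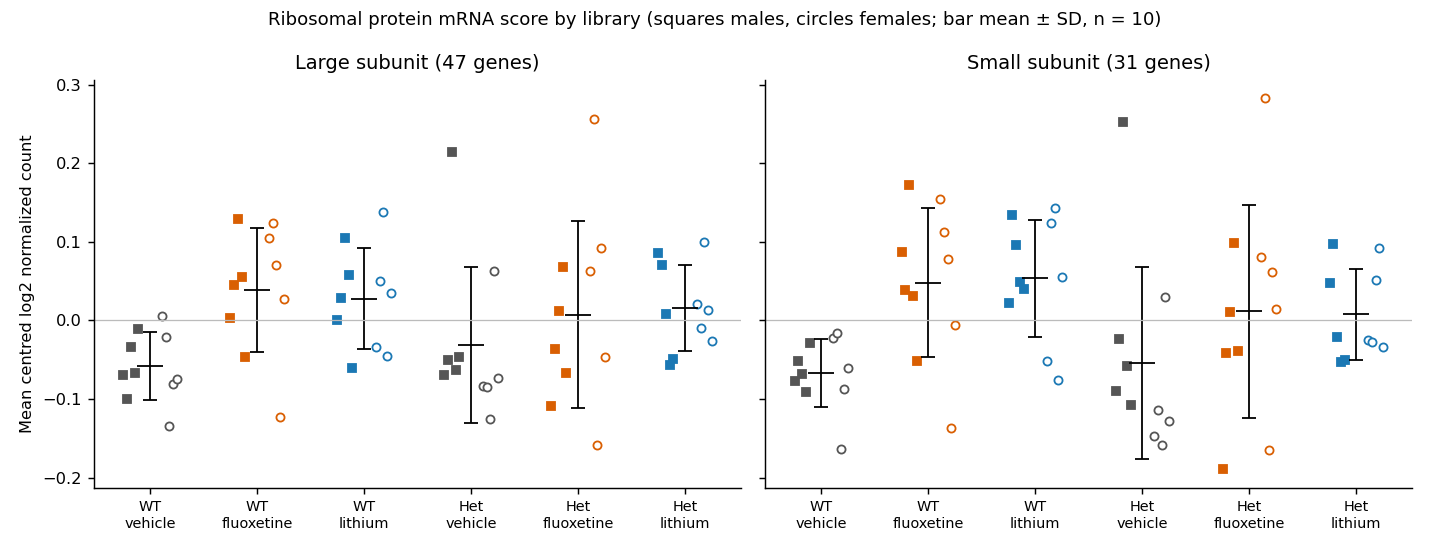
Score of the large and the small subunit (y axis, mean log2 level relative to all 60 libraries) for each library by genotype and treatment, squares for males and circles for females, with the mean ± SD of 10 libraries as bars. Het vehicle male replicate 3 and Het fluoxetine female replicate 2 stand above their groups in both subunits.

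**Figure D3:**
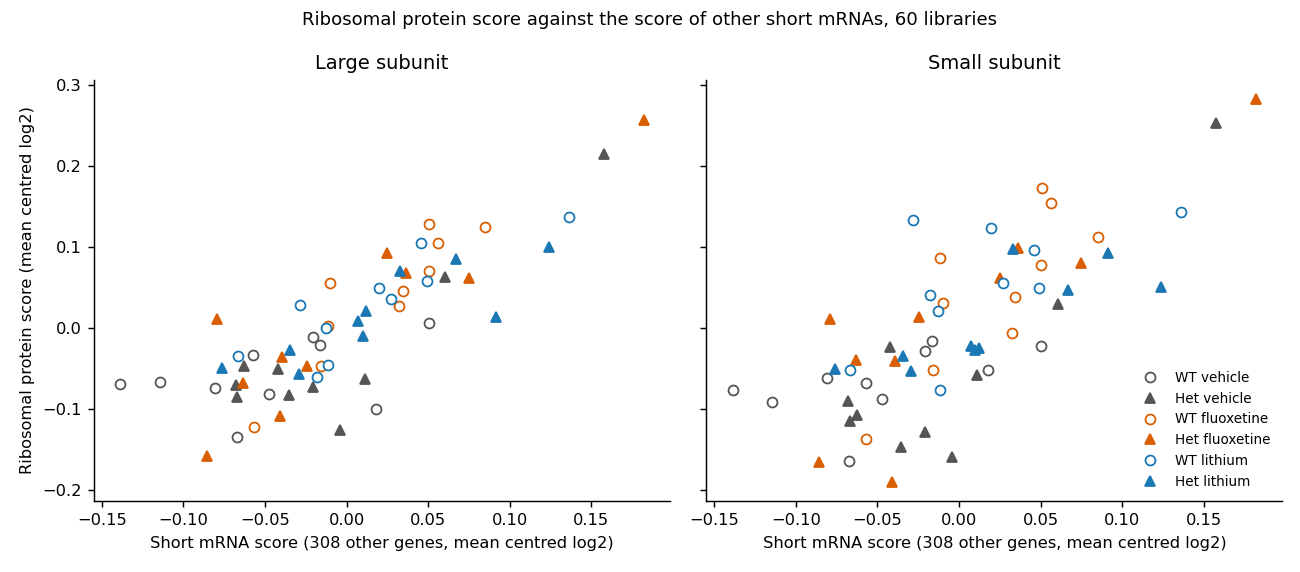
Subunit score (y axis) against the score of 308 other genes with short transcripts (x axis), both as mean log2 level relative to all libraries, 1 point per library, with open circles for WT, filled triangles for Het and colours for treatment. The points rise together in both subunits, with r of 0.83 (large) and 0.77 (small).

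The first comparison asked what the Chd8 allele does without a drug. Between Het and WT mice on vehicle no ribosomal protein gene was called higher or lower by limma, where 0.0562% of all genes were called (4 higher, 6 lower). The median log2 difference, Het minus WT, was 0.025 over the large and 0.004 over the small subunit, beside -0.003 over all genes. At an unadjusted p under 0.05, 2 of 47 large and 0 of 31 small subunit members passed (all genes 7.79%), and edgeR also called no member. In the large subunit the smallest adjusted p-values belonged to Rpl14, a large subunit protein, at 2079 ± 146 in Het and 2267 ± 151 in WT mice (log2 -0.125 ± 0.057 SE, adjusted p = 0.627), and to Rpl36 (0.13, adjusted p = 0.628). Medians were 0.06 (large) and 0.05 (small) in males and -0.01 and -0.03 in females, and without Het vehicle male replicate 3 the sex-averaged medians were -0.003 and -0.018. With the short-transcript score as a covariate they were -0.018 and -0.041. Chd8 itself had a log2 difference of -0.23 in this comparison (adjusted p = 6.67e-06).

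In WT mice fluoxetine went with slightly higher ribosomal protein mRNA. Of the members, 4 of 47 large and 5 of 31 small subunit genes were called higher and none lower, where 8.2% of all genes were called (3.14% higher, 5.06% lower). The median log2 difference was 0.09 over the large and 0.10 over the small subunit (all genes 0.005), with a positive difference for 42 of 47 and 30 of 31 members. Members of a subunit moved together between libraries, so these signs, and those given for the other comparisons, are not separate observations.

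The members called in WT mice sit in different places of the ribosome. Rpl3, beside the peptidyl transferase centre, ran from 8799 through a median of 9323 to 9690 normalized reads on vehicle and from 9483 through 10360 to 10750 on fluoxetine. The groups overlapped only where the lowest fluoxetine libraries met the highest vehicle libraries, and every fluoxetine library lay above the vehicle mean of 9264. Its log2 difference was 0.14 ± 0.033 (SE, adjusted p = 0.00363, 10 libraries per condition). Rpl15, in the core of the large subunit, rose from a median of 3930 (3708 to 4235) to 4335 (3935 to 4883), with log2 0.14 ± 0.038 and adjusted p = 0.0125. Rpl4, which lines the exit tunnel, rose from 8714 (8275 to 8991) to 9205 (8823 to 9911), with log2 0.10 ± 0.031 and adjusted p = 0.0389. Both overlapped between conditions. The last large subunit member called was Rpl37 (0.20, adjusted p = 0.0362).

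In the small subunit Rps6, the target of the S6 kinases downstream of mTORC1, had medians of 4044 (3801 to 4122) on vehicle and 4230 (4121 to 4362) on fluoxetine. The ranges touched at their ends, and the log2 difference was 0.08 ± 0.024 (adjusted p = 0.0179). The log2 SD of Rps6 within groups was 0.048, the lowest of the small subunit. Rps14, on the platform that faces the mRNA exit, rose from 3279 (2869 to 3597) to 3691 (3438 to 4391), with log2 0.22 ± 0.063 and adjusted p = 0.0215. The X-linked Rps4x rose from 3710 (3416 to 3949) to 4160 (3702 to 4341), with log2 0.15 ± 0.043 and adjusted p = 0.0221. Rps16 (0.11, adjusted p = 0.0417) and Rps20 (0.16, adjusted p = 0.0424), both in the head of the small subunit, completed the list. Leaving out single libraries ended the call for Rpl4 in 10, Rpl37 in 11, Rps16 in 11 and Rps20 in 12 of 20 cases, and for Rps14 in 1. Just outside the threshold lay Rpl39 (0.23, adjusted p = 0.0511), Rps2 (0.16, adjusted p = 0.0515) and Rpl6 (0.09, adjusted p = 0.0584).

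**Figure D4:**
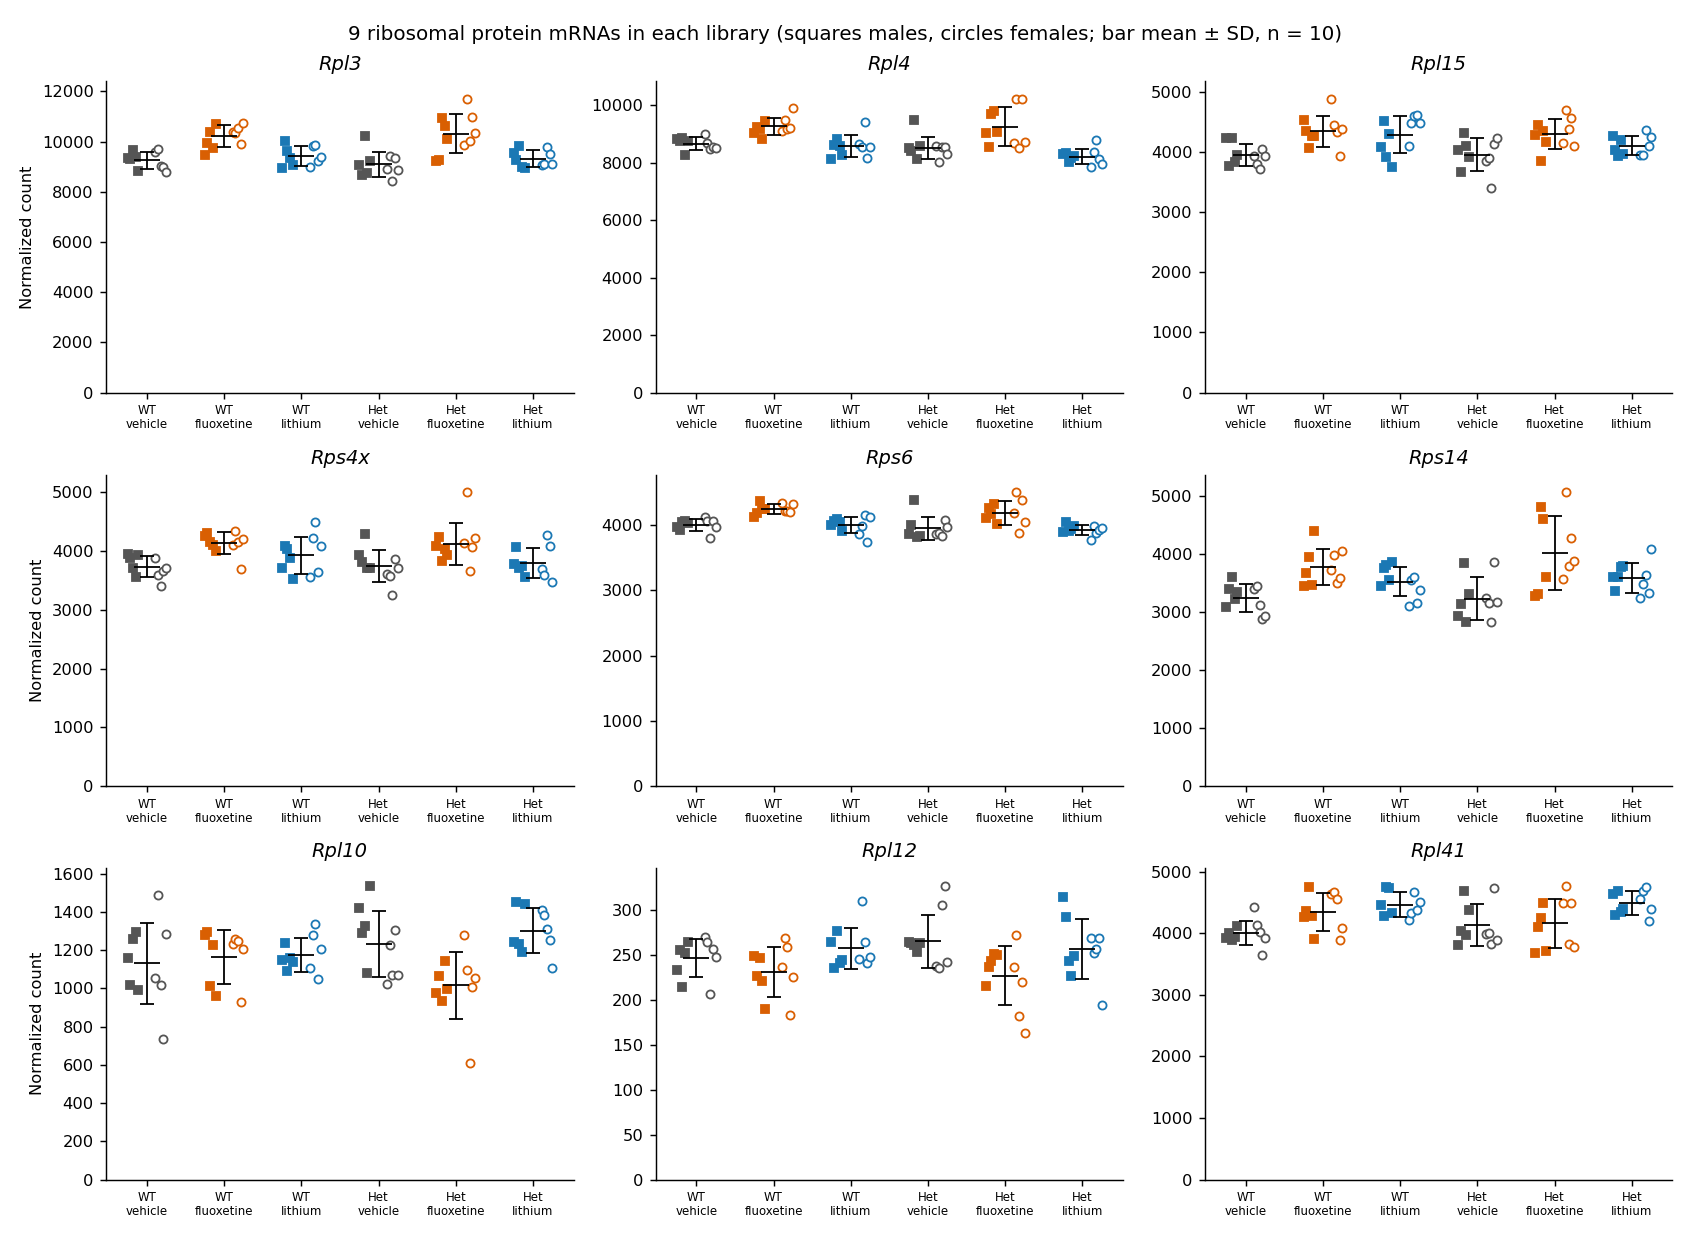
Normalized reads (y axis, from 0) of Rpl3, Rpl4, Rpl15, Rps4x, Rps6, Rps14, Rpl10, Rpl12 and Rpl41 in each library by genotype and treatment, squares for males and circles for females, with the mean ± SD of 10 libraries as bars. Rpl3 is higher on fluoxetine than on vehicle or lithium in both genotypes, and Rpl10 and Rpl12 have their lowest means in Het mice on fluoxetine.

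The sex-averaged call for Rpl3 in WT mice was kept under every alternative run, with adjusted p-values up to 0.0408. Other WT calls were less stable: 2 members were called with the score of short transcripts as a covariate (Rpl3 higher, Rpl12 lower), 3 after rescaling libraries to equal totals (Rpl3, Rpl15, Rps14), and 2 without the libraries of high bulb score (Rpl3, Rps4x). With that covariate the medians were 0.015 (large) and 0.023 (small). The short-transcript score itself was 0.07 higher on fluoxetine, and the bulb marker score 1.03 lower, with 1 of 12 bulb markers called lower and a summed bulb marker level of 3770 to 7910 against 5690 to 20800 on vehicle. In single sexes limma called 0 members in males (smallest adjusted p = 0.297, all genes 1.34%), where 3 of 47 large and 8 of 31 small subunit members had an unadjusted p under 0.05 (all genes 11.1%), and 1 in females, Rpl3 (0.17, adjusted p = 0.0344, all genes 2.5%, of which higher 0.607%), with medians of 0.08 (large) and 0.09 (small) in males and 0.10 in both subunits in females. Without the libraries of high bulb score 0 members were called in either sex, and the count in females was 0 to 3 when single libraries were left out.

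In Het mice fluoxetine gave more calls, among the ribosomal protein genes and among all genes, and the share of members called (24.4%) was below that of all genes. Of the members, 17 were called higher (10 large, 7 small) and 2 lower (both large), 19 of 78, where 32.9% of all genes were called (16.9% higher, 16% lower). The medians were 0.035 over the large and 0.064 over the small subunit (all genes 0.005), with a positive difference for 32 of 47 and 24 of 31 members. Without the libraries of high bulb score 6 members were called, Rpl3, Rpl5, Rpl7 and Rpl14 higher and Rpl10 and Rpl12 lower, and 11 after quantile normalization, after rescaling to equal totals, or with only the 4 groups compared in the fit. Without Het vehicle male replicate 3, 29 were called. The share of all genes called in these alternative runs was not computed, so these counts cannot be set against it. The medians without the libraries of high bulb score were -0.022 and 0.018, and with the short-transcript covariate, with which 24 members were called, 0.03 and 0.059. Single libraries moved the medians too, to 0.016 and 0.034 without Het fluoxetine female replicate 2. The large subunit median was 0.019 without Het fluoxetine male replicate 4, 0.055 without Het vehicle male replicate 3 and 0.06 without Het fluoxetine female replicate 3. The small subunit median was 0.091 without Het vehicle male replicate 3.

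Of the 17 members called higher in Het mice, 10 were of the large subunit. Rpl3 ran from 8425 through a median of 8993 to 10210 on vehicle and from 9209 through 10230 to 11710 on fluoxetine (log2 0.18 ± 0.033 SE, adjusted p = 4.09e-05), overlapping in the middle of both ranges. Rpl7, a protein of the large subunit, had 3456, 3885, 3934, 4171 and 4201 normalized reads in the vehicle females and 4674, 4789, 5123, 5201 and 5727 in the fluoxetine females, with no overlap. In males the ranges of 4086 to 5148 and 4307 to 5126 overlapped almost fully, and the sex-averaged log2 difference was 0.25 ± 0.048 (adjusted p = 8.1e-05). Rpl17 (0.24, adjusted p = 0.00101) and Rpl4 (0.12, adjusted p = 0.0026) border the exit tunnel, and Rpl5 (0.23, adjusted p = 0.00188) binds the 5S rRNA and, off the ribosome, Mdm2. Rpl14 (0.21, adjusted p = 0.00314) and Rpl15 (0.12, adjusted p = 0.0104) followed, with Rpl24 (0.30, adjusted p = 0.0117), which bridges the subunits, and with Rpl7a (0.095) and Rpl6 (0.086).

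In the small subunit Rps14 ran from 2819 through 3166 to 3853 on vehicle and from 3281 through 3834 to 5061 on fluoxetine in Het mice (log2 0.31 ± 0.063, adjusted p = 0.000179). The highest value was that of Het fluoxetine female replicate 2, one of the libraries of high bulb score. Rps6 (0.09 ± 0.024, adjusted p = 0.00457) and Rps4x (0.14 ± 0.043, adjusted p = 0.0111) were higher by about as much as in WT mice. Rps13 (0.15, adjusted p = 0.0225), Rps7 (0.16, adjusted p = 0.0239) and Rps25 (0.18, adjusted p = 0.0464) were called as well. Leaving out single libraries ended the call for Rps25 in 12 of 20 cases (0.126 and adjusted p = 0.149 at most, without Het fluoxetine female replicate 2), for Rps13 in 4, for Rps7 in 3, and for Rpl6 and Rpl7a in 2. Rps25 is known for its part in initiation on internal ribosome entry sites.

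The members that fell in Het mice on fluoxetine were Rpl10 and Rpl12, both of the large subunit. Rpl10 (X:74270812-74273135), which is among the last proteins added to the large subunit, had 1021, 1257 and 1538 normalized reads (lowest, median, highest) on vehicle and 608, 1033 and 1282 on fluoxetine. Its log2 difference was -0.29 ± 0.093 (adjusted p = 0.0127), and the ranges overlapped. The lowest value belonged to Het fluoxetine female replicate 3, and without that library the difference was -0.20 (adjusted p = 0.055). Rpl12 (2:32961559-32965345), at the base of the stalk, had 235, 262 and 327 on vehicle and 163, 236 and 272 on fluoxetine (log2 -0.23 ± 0.077, adjusted p = 0.017). Its call was lost without Het fluoxetine female replicate 5 (-0.186, adjusted p = 0.0561) and without Het vehicle female replicate 4 (-0.195, adjusted p = 0.0505). Rpl12 is also the gene called lower in WT mice once the short-transcript score was a covariate (-0.21, adjusted p = 0.0439).

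In single sexes the calls in Het mice on fluoxetine were mostly higher in females and mostly lower in males, but the difference between the sexes was called for no member. In females 22 members were called higher (11 of each subunit) and 1 lower, where 15.1% of all genes were called (7.08% higher, 8.04% lower), with medians of 0.12 in both subunits. The female group included Rpl7 (0.38, adjusted p = 0.000166), Rpl3 (0.23, adjusted p = 0.000568), Rpl24 (0.45) and Rpl5 (0.34), and Rpl12 was the gene called lower (-0.34, adjusted p = 0.0289). In males 2 members were called higher, Rps14 (0.28, adjusted p = 0.0201) and Rpl3 (0.13, adjusted p = 0.0452), and 6 lower, where 22.7% of all genes were called (12% higher, 10.7% lower), with medians of -0.03 and -0.01. The lower members in males were Rpl27 (-0.18, adjusted p = 0.00501), Rpl23a (-0.18), Rpl10 (-0.38, adjusted p = 0.0325), Rpl35 (-0.27), Rps9 (-0.25) and Rps24 (-0.29). That difference, males minus females, had medians of -0.15 in both subunits (smallest adjusted p = 0.164, Rpl27), where limma called 0.0112% of all genes. At an unadjusted p under 0.05, 14 of 47 large and 12 of 31 small subunit members passed (all genes 12.2%). Without the libraries of high bulb score, which leave 2 Het vehicle males and 2 Het fluoxetine females, 5 members were called in females and 0 in males. Leaving out single libraries gave 7 to 33 calls in females in place of 23. The count was 7 without Het fluoxetine female replicate 2, 12 without Het vehicle female replicate 3 and 33 without Het fluoxetine female replicate 3. The count in males, 8, was 1 without Het fluoxetine male replicate 3 and 3 to 5 without Het fluoxetine male replicate 1, 4 or 5 or Het vehicle male replicate 1, 2, 4 or 5. With the short-transcript covariate 6 members were called higher and 4 lower in males.

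Some cell type markers were called in the same Het comparison, where 16.9% of all genes were called higher and 16% lower. Fluoxetine libraries had 4 of 6 leptomeningeal, 4 of 8 microglial, 3 of 6 endothelial and 2 of 7 astrocyte markers called lower, and 2 of 12 oligodendrocyte and 2 of 10 striatal markers called higher. Summed oligodendrocyte markers had a median of 104000 normalized reads (35000 to 166000) on vehicle and 158000 (38400 to 212000) on fluoxetine. Summed leptomeningeal markers had a median of 3250 (1970 to 4220) on vehicle and 2090 (1930 to 4210) on fluoxetine. With the bulb and oligodendrocyte scores as covariates 16 members were called in place of 19. The part of these cell types in the ribosomal results was otherwise not tested.

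**Figure D5:**
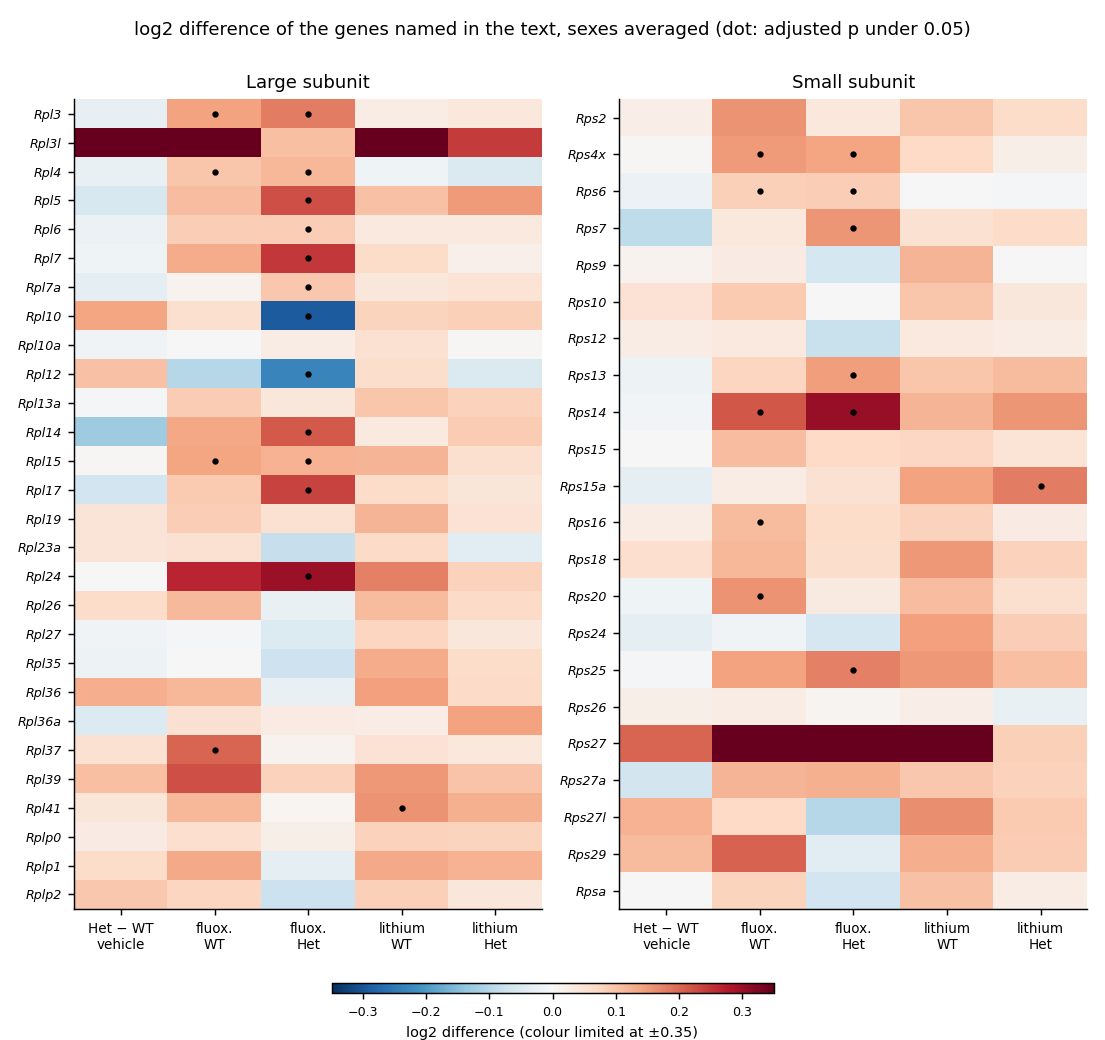
Colour gives the log2 difference of the 28 large and 22 small subunit members named in the text (rows) in the 5 sex-averaged comparisons (columns), red for higher and blue for lower, with the colour limited at ±0.35, and dots mark called members. Red prevails for both drugs in WT mice, and the dotted blue cells are those of Rpl10 and Rpl12 with fluoxetine in Het mice.

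The genotypes shared 6 of the members called higher with fluoxetine: Rpl3, Rpl4, Rpl15, Rps4x, Rps6 and Rps14. That is 6 of 9 in WT and 6 of 17 in Het mice. Over all genes 3.14% were called higher in WT and 16.9% in Het mice, and the share called higher in both is not given here. These 2 comparisons use different vehicle libraries. Without the libraries of high bulb score, Rpl3 alone was called higher in both genotypes. With the short-transcript covariate, Rpl3 alone of the 6 was still called in WT mice. For the 6 genes the difference between genotypes (Het minus WT) ran from -0.02 for Rpl15 to 0.09 for Rps14, with adjusted p-values from 0.599 to 0.995. Over all members the genotype by fluoxetine interaction was called for none, where limma called 1.7% of all genes, with medians of -0.04 (large) and -0.05 (small). At an unadjusted p under 0.05, 6 of 47 large and 3 of 31 small subunit members passed (all genes 21.1%), and edgeR called none either. The largest interaction of the lower members was that of Rpl10 (-0.35 ± 0.131, adjusted p = 0.12), and the smallest adjusted p-values of the small subunit were those of Rps29 (-0.24, adjusted p = 0.144) and Rpsa (-0.14, adjusted p = 0.150). Het mice on fluoxetine set directly against WT mice on fluoxetine differed in 1 member, Rpsa, the laminin receptor precursor of the small subunit (-0.14, adjusted p = 0.0289), where 7.33% of all genes were called (3.88% lower).

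Lithium gave 1 call in each genotype. Its comparisons use the same vehicle libraries as those of fluoxetine, so the values of the drugs are set side by side only. In WT mice 1 member was called, where 2.97% of all genes were called (1.9% higher), and the medians were 0.08 over the large and 0.10 over the small subunit (all genes -0.004), positive for 46 of 47 and 30 of 31 members. The short-transcript score was 0.06 higher on lithium, and with it as a covariate no member was called and the medians were 0.019 and 0.023. Without the libraries of high bulb score no member was called. Rpl41, the very small large subunit protein, had medians of 3974 (3655 to 4430) on vehicle and 4424 (4212 to 4748) on lithium (log2 0.16 ± 0.045, adjusted p = 0.0384). The call was lost without any 1 of 12 of the 20 libraries, with adjusted p up to 0.0841. Rpl19 (0.12, adjusted p = 0.0674), Rpl15 (0.12, adjusted p = 0.0704) and Rps18 (0.15, adjusted p = 0.0974) came next. Rps27 averaged 151 ± 131 normalized reads on lithium and 57.5 ± 14.4 on vehicle (log2 0.92 ± 0.36, adjusted p = 0.149), and the high mean came from 5 of 10 libraries, between 149.8 and 413. EdgeR on the recovered reads called Rps27 as well (1.34, adjusted p = 0.0366).

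In Het mice lithium likewise gave 1 call, where 9.14% of all genes were called (5.3% higher), with medians of 0.045 and 0.065 over the large and small subunit (all genes -0.002). The medians were 0.075 and 0.101 without Het vehicle male replicate 3, and 0.021 and 0.03 with the short-transcript covariate. Rps15a had medians of 3022 (2238 to 3473) on vehicle and 3308 (3035 to 3753) on lithium (log2 0.18 ± 0.057, adjusted p = 0.0342). The vehicle libraries spread more widely than the lithium libraries, and the ranges overlapped. The call was lost without any 1 of 9 of the 20 libraries, while 7 members were called without Het vehicle male replicate 3 and none without the libraries of high bulb score. Rpl41 (0.125, adjusted p = 0.0649), Rpl5 (0.15, adjusted p = 0.0871) and Rps14 (0.16, adjusted p = 0.108) came next. Erythrocyte markers were called higher on lithium in both genotypes, 3 of 5 in WT and 4 of 5 in Het mice, and their part in the result was not tested. No member was called for the genotype by lithium interaction, where limma called 0 genes in all (unadjusted p under 0.05 in 0 members and 3.45% of all genes), and edgeR called no member.

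Set directly against lithium, fluoxetine gave higher levels of Rpl4 (0.11, adjusted p = 0.0143), Rps6 (0.09, adjusted p = 0.0146) and Rpl3 (0.12, adjusted p = 0.0198) in WT mice, 3 members where 7.74% of all genes were called (2.95% higher). On lithium these genes stayed near vehicle: Rpl3 differed from it by 0.03 in WT and 0.04 in Het mice, Rpl4 by -0.02 and -0.05, and Rps6 by -0.002 and -0.007. Het mice had 6 members higher and 4 lower on fluoxetine than on lithium, where 25% of all genes were called (12.4% higher, 12.6% lower). The higher members were Rpl4 (0.17, adjusted p = 4.1e-05), Rpl7 (0.23), Rpl17 (0.19), Rpl3 (0.14), Rps4x (0.12) and Rps6 (0.09). The lower members, all of the large subunit, were Rpl10 (-0.37, adjusted p = 0.00194), Rplp1 (-0.15), Rpl41 (-0.12) and Rpl27 (-0.09).

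The sexes did not differ in any member when all genotypes and treatments were averaged: limma called 0 of 78, with an adjusted p of 1 for each, where 0.14% of all genes were called (unadjusted p under 0.05 for 1 of 78 members and 3.63% of all genes). The medians, males minus females, were -0.003 (large) and 0.007 (small). Of the 4 X-linked members Rpl10 differed by 0.05, Rpl39 by 0.02, Rps4x by 0.01 and Rpl36a by -0.02, and edgeR called none.

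None of the stalk genes Rplp0, Rplp1 and Rplp2, and neither of the paralogs Rpl3l and Rps27l, passed the test of a drug against vehicle. The acidic proteins Rplp1 and Rplp2 were at 0.13 and 0.08 with fluoxetine in WT mice and at -0.03 and -0.07 in Het mice, and at 0.13 and 0.08 with lithium in WT and 0.12 and 0.04 in Het mice. Their anchor Rplp0 was at 0.06 and 0.02 with fluoxetine and at 0.08 in both genotypes with lithium. Among the paralogs, Rpl3l, at a mean of 7.75 normalized reads, was at 0.60 with fluoxetine in WT mice (adjusted p = 0.114) and 0.11 in Het mice, while Rps27l was at 0.07 and -0.10.

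Larger shares of other translation genes than of ribosomal protein genes were called in Het mice on fluoxetine, where 16.9% of all genes were called higher. The difference in shares was not tested. Lists of genes other than the members were not counted in the alternative runs, so how far their counts depend on the processing is not known. Of 19 genes for elongation factors and other mRNAs with pyrimidine starts, 12 rose and 1 fell there (median 0.13), among them Eif3e (0.34, adjusted p = 1.61e-07) and Eif3h (0.16, adjusted p = 0.00039), subunits of the initiation factor that holds the small subunit, Eif2s3x (0.24), which helps bring the initiator tRNA, and Eif4b (0.28), a helper of the mRNA helicase. Of 26 other initiation factor genes 14 rose and 1 fell (median 0.11), led by the helicase Eif4a2 (0.30, adjusted p = 1.9e-06) and by Eif5 (0.18, adjusted p = 2.77e-06). In WT mice on fluoxetine 2 of 19 rose and 0 fell, and 3 of 26 rose and 1 fell. Of all genes, 3.14% were called higher and 5.06% lower there. Those that rose included Eif5 (0.11, adjusted p = 0.00616) and Eif1 (0.14, adjusted p = 0.0102), which take part in start codon selection.

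Of 49 ribosome biogenesis genes 11 rose and 9 fell in Het mice on fluoxetine (median -0.01), where 16.9% of all genes were called higher and 16% lower. In WT mice 0 rose and 5 fell, where 3.14% of all genes were called higher and 5.06% lower. Mdn1, the giant ATPase that strips factors from the large subunit precursor, fell in both, by 0.44 in Het (adjusted p = 1.09e-05) and 0.29 in WT mice, and Nop58, a core protein of the RNA-guided methylation machinery, fell by 0.22 in WT mice. Of 15 genes of RNA polymerase I transcription 1 rose and 4 fell in Het mice, with Taf1c (-0.28, adjusted p = 3.23e-06), Taf1d (-0.32) and Ttf1 (-0.34) lower and Rrn3 (0.10) higher. Of 22 genes of mTORC1 signalling 5 rose and 5 fell there, among them the arginine sensor Castor1 (0.65, adjusted p = 0.000218) and the translation inhibitor Pdcd4 (0.21), both higher. Sesn2, a leucine sensor, was the mTORC1 gene called higher with lithium in both genotypes (0.24 in WT, adjusted p = 0.0489, and 0.45 in Het mice, adjusted p = 5.12e-05). Of 7 ribosomal genes that the symbol form leaves out, among them Rack1 and Fau, Rps27rt alone was called (0.31 with fluoxetine in Het mice, adjusted p = 0.0159). In Het against WT mice on vehicle none of these lists held a called gene.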

How the data were processed

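RNA from mouse prefrontal cortex was sequenced in 60 libraries. The deposited signal per gene was a read number scaled by a size factor, 0.818 to 1.07 across libraries, since 100% of values came out as whole reads within 0.001 once multiplied by it. GRCm38, R 3.6.0, DESeq2 1.19.11 and Salmon 0.11.2 are listed in the submitters' processing notes, with no roles. Gene names for 18077 IDs came from GENCODE M21. Tests used R 4.3.3 and limma 3.58.1 (limma-trend, log2(value + 1), 48 residual degrees of freedom), averaging the sexes. EdgeR 4.0.16 on the recovered reads was an alternative and called 1484 genes for fluoxetine in WT and 5745 in Het mice. The tests were also run on simulated data in which genes varied independently, so that run does not cover members that move together. Named members were, per subunit: up to 6 with the smallest adjusted p per comparison, called members against their median, the 3 highest and lowest per kilobase, paralogs, stalk and X-linked genes, the 3 most and least like the subunit mean, and up to 4 genes per pathway list; others were chosen after their values were seen. Lists covered left-out ribosomal genes, elongation, initiation, biogenesis, RNA polymerase I and mTORC1, and markers of 11 cell types. Some single genes are not reported here. The members and lists were chosen with earlier results of these data known. Replicates differed beyond sampling noise in all 120 pairs (chi-square per degree of freedom 4.12 to 70).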

Additional observations from a re-analysis of the deposited data

Results flagged for a closer look

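In groups of 5, the library at one end was compared with the gap to its nearest neighbour over the group's range (critical value 0.71); 9 of 144 such tests passed, and chance passes about 1 in 20. Het vehicle male replicate 3 stood above its group in the large subunit score (0.21, others -0.07 to -0.05) and the small subunit score (0.25, others -0.11 to -0.02). Het vehicle female replicate 4 stood above its group in the large subunit score (0.0632, others -0.13 to -0.07), in the small subunit score (0.0304, others -0.16 to -0.11) and in Rpl41 (4732 normalized reads, others 3829 to 3999). The score of short transcripts was 0.16 and 0.06 in these libraries. Single genes also had a low library: Rpl12 in Het lithium female replicate 5 (194.6, others 252.4 to 269.2), Rpl10 in WT fluoxetine female replicate 4 (928.5, others 1207 to 1261), Rpl15 in WT lithium female replicate 1 (4098, others 4475 to 4618) and Rpl4 in WT vehicle male replicate 4 (8275, others 8747 to 8873).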

How the results depend on the processing

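Counts of called members depended on the processing for each drug, and none of 30 calls of single members changed direction in the alternatives run. Fluoxetine in Het mice (19) gave 11 after quantile normalization, 11 after rescaling to equal totals, 11 with only the groups compared and 6 without the 14 libraries of high bulb score, a choice made after seeing the data; leaving out each library in turn gave 13 to 29. Fluoxetine in WT mice (9) gave 3 after rescaling, 2 with the short-transcript score as covariate, 23 with only the groups compared and 2 without the libraries of high bulb score. Leaving out each library gave 5 to 16: 5 without WT fluoxetine female replicate 2, WT vehicle female replicates 3, 4 or 5, or WT vehicle male replicates 2 or 4, 14 without WT vehicle female replicate 1 and 16 without WT fluoxetine female replicate 4. Lithium in WT mice (1) gave 0 after quantile normalization, with the short-transcript covariate and without the libraries of high bulb score, 2 with edgeR, 4 with the bulb and oligodendrocyte covariates, 10 with only the groups compared and 0 to 2 leaving out each library. Lithium in Het mice (1) gave 0 after rescaling, with only the groups compared and without the libraries of high bulb score, 2 with the bulb and oligodendrocyte covariates, and 0 to 7 leaving out each library. The cause of these shifts was not tested, and except for edgeR the share of all genes called in the alternatives was not computed. The counts of 0 for genotype, both interactions and sex stayed 0 under every alternative run. Of 30 calls of single members, 30 were kept with a pseudocount of 10 and 30 without the low-value filter, 27 with edgeR and 8 without the libraries of high bulb score. Replicate numbers were not used to pair the samples. Libraries of the same number had a mean residual correlation of 0.002, beside -0.001 for libraries of other numbers. Of 60 libraries 18 were closest to their own number, and the count to be had by chance is not given here. With the replicate number as a block, 19, 10, 1 and 1 members were called for fluoxetine in Het and WT and lithium in WT and Het mice. Spread within groups limited Rpl3l, at a mean of 7.75 normalized reads, and Rps27 most (log2 SD 0.53 and 0.84).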
